A study of Mus musculus with 3 samples.

Results

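A set of 6 cytokine genes was described, Il6 and the interleukin-12 family genes Il12a, Il12b, Il23a, Il27 and Ebi3, all of them secreted products of activated macrophages and dendritic cells. They were chosen by name as secondary-response cytokines, and each symbol matched a single protein-coding gene of GENCODE M1 on the mm9 mouse genome, 6 of 22350 coding genes on chromosomes 1 to 19 and X. The study followed RNA polymerase II (Pol_II) phosphorylated at Ser5 of its carboxy-terminal domain, a form found at transcribing genes, by ChIP-Seq with the antibody ab5131. All 3 libraries came from primary bone marrow-derived macrophages of female Fvb mice (Fvb/Hsd in the study's methods), cultured in medium conditioned by L929 cells and taken on day 7 of differentiation, with no genetic change named in the labels. The untreated Ser5 library (UT) came from cells given nothing, the LPS library from cells stimulated for 2 h with 10 ng/ml lipopolysaccharide, a wall component of Gram-negative bacteria, and the input library was DNA of untreated cells without immunoprecipitation. The labels do not say how many mice were pooled, and no input of LPS-treated cells was analysed here.

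Interleukin-6 signals through its receptor and the shared chain gp130 to JAK kinases and STAT3, and drives fever, acute-phase protein synthesis and lymphocyte differentiation. The interleukin-12 family is built from paired subunits: p35 (Il12a) joins p40 (Il12b) to give IL-12, p19 (Il23a) joins p40 to give IL-23, p28 (Il27) joins EBI3 (Ebi3) to give IL-27, and p35 can join EBI3 to give IL-35. IL-12 steers T and NK cells to interferon-gamma production, IL-23 maintains T cells that make interleukin-17, and IL-27 both promotes early and restrains later T cell responses. In macrophages exposed to LPS, Il6 and Il12b are textbook secondary-response genes, whose transcription needs proteins made after the first wave of genes such as Tnf.

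There was 1 library per condition, so no test between conditions was possible and no p-value is given. A tag is the 5′ end of an aligned read. Levels are tags per 1000000 tags on chromosomes 1 to 19 and X (TPM), per kb where genes of different length are set side by side, and intervals are exact 95% Poisson intervals for a level or exact conditional intervals for a ratio. They cover counting error only, since PCR copies and the spread between cultures are not in them. A gene or region was called higher or lower when TPM differed by a factor of 2 or more between LPS and UT and both Ser5 libraries together held at least 10 tags. The libraries held 7616771 (UT), 6249819 (LPS) and 7533308 (input) tags, and every UT tag spanned 45 bases, every LPS tag 30 and every input tag 36. In each library a count of 0 allows up to 3 tags, which is 0.394 TPM in UT and 0.480 after LPS. A change in the share of cells that transcribe a gene and a change within each cell cannot be told apart in these bulk samples.

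The 8 macrophage markers examined, among them Csf1r and Emr1, all had a Ser5 peak at the gene body and at the transcription start site (TSS) in both Ser5 libraries. Of all coding genes, 53.3% held a gene body peak in UT and 50.6% after LPS, and 48% and 45.9% a TSS peak. In the gene body 2 of the 8 markers were called higher after LPS and 4 lower, beside 5.83% and 11.3% of coding genes tested. Their median ratio of LPS to UT was 0.618. Of 22 markers of 7 other cell types, 1 (the neutrophil gene S100a8) had a TSS peak in UT and 0 had one after LPS, while 4 had a gene body peak in UT (Zbtb46, S100a8, Cd3d and Klf1) and 2 after LPS (Cd79a and Cd3d). The median gene body level of these 22 markers was 0.162 TPM per kb in UT and 0.169 after LPS, against 25.02 and 9.79 for the macrophage markers.

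The promoters of the 6 genes are shown because every result below is placed relative to them. Each line gives the 200 bases before the annotated TSS, read 5′ to 3′ on the gene's strand from the mm9 genome: Il6 at chr5:30339501-30339700 (plus strand), Il12a at chr3:68494366-68494565 (plus), Il12b at chr11:44213365-44213564 (plus), Il23a at chr10:127735141-127735340 (minus), Il27 at chr7:133738456-133738655 (minus) and Ebi3 at chr17:56091846-56092045 (plus). Capitals mark matches to 6 motifs searched on both strands.
Il6: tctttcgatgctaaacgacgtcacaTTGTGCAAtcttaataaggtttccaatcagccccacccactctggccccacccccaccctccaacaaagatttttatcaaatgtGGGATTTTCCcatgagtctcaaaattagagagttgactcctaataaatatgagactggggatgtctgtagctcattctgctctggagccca
Il12a: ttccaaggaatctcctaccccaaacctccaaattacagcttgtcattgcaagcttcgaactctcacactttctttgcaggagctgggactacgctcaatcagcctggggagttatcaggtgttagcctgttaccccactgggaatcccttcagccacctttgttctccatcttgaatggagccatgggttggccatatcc
Il12b: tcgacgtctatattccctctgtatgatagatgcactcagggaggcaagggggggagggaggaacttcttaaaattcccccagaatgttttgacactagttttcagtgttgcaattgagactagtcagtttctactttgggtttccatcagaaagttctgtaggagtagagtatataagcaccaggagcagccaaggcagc
Il23a: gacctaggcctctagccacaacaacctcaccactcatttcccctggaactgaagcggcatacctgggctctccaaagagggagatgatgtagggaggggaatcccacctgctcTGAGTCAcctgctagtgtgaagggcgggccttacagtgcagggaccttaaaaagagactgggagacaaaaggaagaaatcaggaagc
Il27: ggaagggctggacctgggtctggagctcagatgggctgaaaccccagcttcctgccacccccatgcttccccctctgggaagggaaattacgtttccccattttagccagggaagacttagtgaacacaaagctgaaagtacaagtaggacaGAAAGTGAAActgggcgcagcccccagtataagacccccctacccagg
Ebi3: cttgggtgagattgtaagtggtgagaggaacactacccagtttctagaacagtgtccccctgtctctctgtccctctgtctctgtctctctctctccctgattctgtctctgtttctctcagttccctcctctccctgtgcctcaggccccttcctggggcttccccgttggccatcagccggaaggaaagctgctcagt
The motifs were an NF-kB type, AP-1 (TGANTCA), a C/EBP type (TTGNNCAA), an IRF type, a PU.1 type (GAGGAAGT) and the TATA box. In Il6 the NF-kB type match (GGGATTTTCC) lay at -91 to -82 from the TSS and the C/EBP type match at -175 to -168, with no overlap between them. Il23a held an AP-1 match at -87 to -81 and Il27 an IRF type match (GAAAGTGAAA) at -48 to -39. No match to these letters was found in Il12a, Il12b or Ebi3. Over the same window of all 22350 coding genes, 1.14% held the NF-kB type letters, 4.54% the C/EBP type, 4.80% AP-1, 2.67% the IRF type, 2.00% the PU.1 type and 10.0% the TATA box letters, TATAAA. A match is a description of the sequence and says nothing about binding.

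Across the gene bodies, the rule called 5 of the 6 genes higher in the LPS library and 0 lower, where 5.83% of the 17386 coding genes with enough tags were higher and 11.3% lower. The median ratio of LPS to UT over the 6 genes was 5.31, and over all coding genes tested it was 0.874. The genes fell into different patterns. Il6 and Il12b had almost no Ser5 tags before LPS and many after. Before LPS, Ebi3 already had Ser5 peaks, 1 of them at its TSS, and Il27 had only weak ones toward its 3′ end. Il12a and Il23a had no gene body level whose interval lay above the input, with tags scaled to the whole library.

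**Figure D1:**
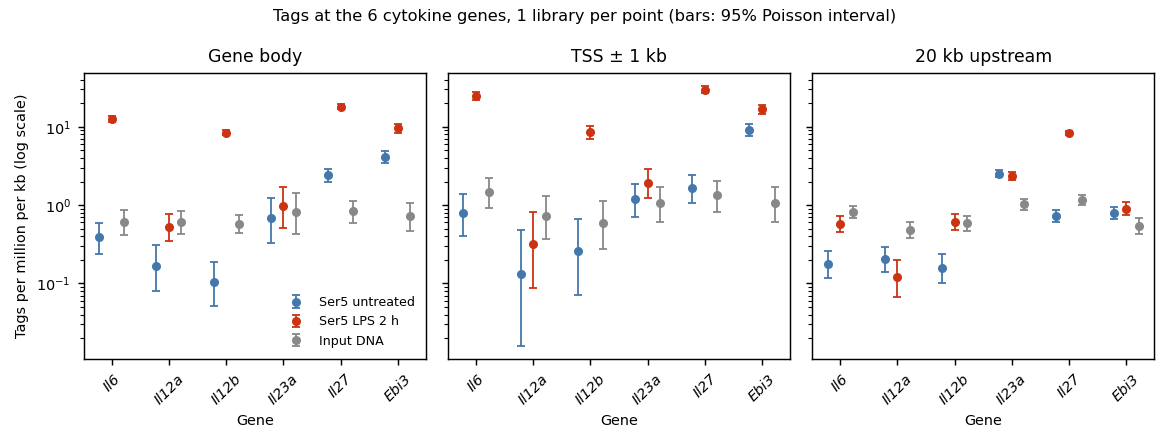
TPM per kb (log scale) at the 6 genes in the gene body, within 1 kb of the TSS and in the 20 kb upstream, for the UT, LPS and input libraries; each point is 1 library and bars are 95% Poisson intervals. In the gene body the LPS points of Il6, Il12b, Il27 and Ebi3 (8.34 to 18.0) lie above the input points (0.580 to 0.828), while those of Il12a and Il23a are 0.871 and 1.21 times their own input, with intervals that include 1.

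Il6, at chr5:30339701-30346508 on the plus strand with 5 exons, held 20 tags over its gene body in UT, 537 after LPS and 31 in the input. These are 0.386 (0.236 to 0.596), 12.6 (11.6 to 13.7) and 0.604 TPM per kb. The UT level was thus not above the input, at 0.638 times it (0.345 to 1.16), and the LPS level was 20.9 times the input (14.5 to 31.0). Ratios to the input depend on the scaling: set to the tags outside peaks, every UT ratio to the input is 1.91 times and every LPS ratio 2.06 times as large, which puts Il6 in UT at 1.22 times the input (0.659 to 2.21). LPS over UT was 32.7 (21.0 to 54.0), and of the 17386 coding genes tested 15 had a larger ratio.

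Il6 had no Ser5 peak within 20 kb upstream, at the TSS or in the gene in UT. After LPS, 5 peaks covered 64.3% of the gene, the highest with a score of 2051 (the score is -10 times log10 of the p-value that MACS gave, and the lowest score in either list is 50). The window of 1 kb on each side of the TSS held 12 tags in UT, 310 after LPS and 22 in the input, a ratio of LPS to UT of 31.5 (17.8 to 61.6). Ser5 after LPS was densest in the first kb of the gene (260 tags), fell to 46 tags in the third kb and came back to 68 tags in the sixth. The fourth kb held 0 tags in both Ser5 libraries and 1 in the input, so little could be seen there in any library. No peak was called between 2636 and 4848 bp past the TSS. From the end of the gene, peaks no more than 1 kb apart went on to 9103 bp, which is 2296 bp past the annotated end, and the 10 kb after the gene held 9 tags in UT and 112 after LPS (15.2 times, 7.71 to 34.0). No other annotated gene lay in this interval.

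Il12b, at chr11:44213565-44227535 on the plus strand, encodes the p40 subunit shared by IL-12 and IL-23. It had the lowest gene body level of the 6 genes in UT, 11 tags or 0.103 TPM per kb (0.0516 to 0.185). After LPS it held 728 tags, 8.34 TPM per kb (7.74 to 8.97), and the input held 61, 0.580 TPM per kb. LPS over UT was 80.7 (44.8 to 162), a ratio exceeded by 5 of the 17386 coding genes. The untreated level was 0.178 times the input (0.0846 to 0.342), and the LPS level was 14.4 times it (11.1 to 19.001).

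At the TSS of Il12b, the 2 kb window held 4 tags in UT, 107 after LPS and 9 in the input (LPS over UT 32.6, 12.4 to 122). Within 500 bp on each side of the TSS there were 0 tags in UT and 68 after LPS, at least 27.6-fold higher when the UT count is set to its limit of 3 tags, and the exact conditional interval of the ratio starts at 21.9. After LPS, 13 peaks covered 73.5% of the gene and the peaks at its 3′ end went on to 1815 bp past the annotated end, while UT had 0 peaks. The density in the TSS window was 1.08 times (0.871 to 1.33) that in the rest of the gene body after LPS, whereas at Il6 it was 3.25 times (2.75 to 3.83). The input gave 0.989 (0.431 to 2.01) by the same measure at Il12b and 2.66 (1.42 to 4.95) at Il6. The TSS window of Il6 was thus denser than the rest of the gene in the input too, but with another profile. The input held 15 tags in the kb before the Il6 TSS and 7 in the first kb of the gene, against 50 and 260 after LPS. Ser5 after LPS extended over the whole of Il12b, with between 25 and 91 tags in each kb up to 14 kb past the TSS.

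A further peak was called after LPS upstream of Il12b, at chr11:44203644-44204149, at -9921 to -9416 bp from the TSS and in no annotated gene. It is shown as the only peak of the Il12b upstream region away from the TSS. It was weak, with a score of 59.8, and held 3 tags in UT, 21 after LPS and 8 in the input. LPS over UT was 8.53 (2.55 to 44.7) and LPS over input 3.16 (1.35 to 8.26). The central 300 bases of this peak (chr11:44203747-44204046, plus strand) follow, with no capitals because none of the 6 motifs matched.
Il12b upstream peak: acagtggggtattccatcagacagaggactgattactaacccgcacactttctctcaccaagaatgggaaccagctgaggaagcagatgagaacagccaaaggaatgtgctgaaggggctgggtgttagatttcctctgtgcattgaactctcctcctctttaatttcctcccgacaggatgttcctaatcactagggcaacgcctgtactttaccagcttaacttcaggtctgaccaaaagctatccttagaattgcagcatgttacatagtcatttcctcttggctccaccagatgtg
Among the 13932 windows of the same length centred on LPS peaks 1 to 20 kb upstream of coding genes, 9.41% held the AP-1 letters, 5.94% the C/EBP type, 1.81% the NF-kB type, 3.57% the IRF type, 4.03% the PU.1 type and 8.55% the TATA letters.

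**Figure D2:**
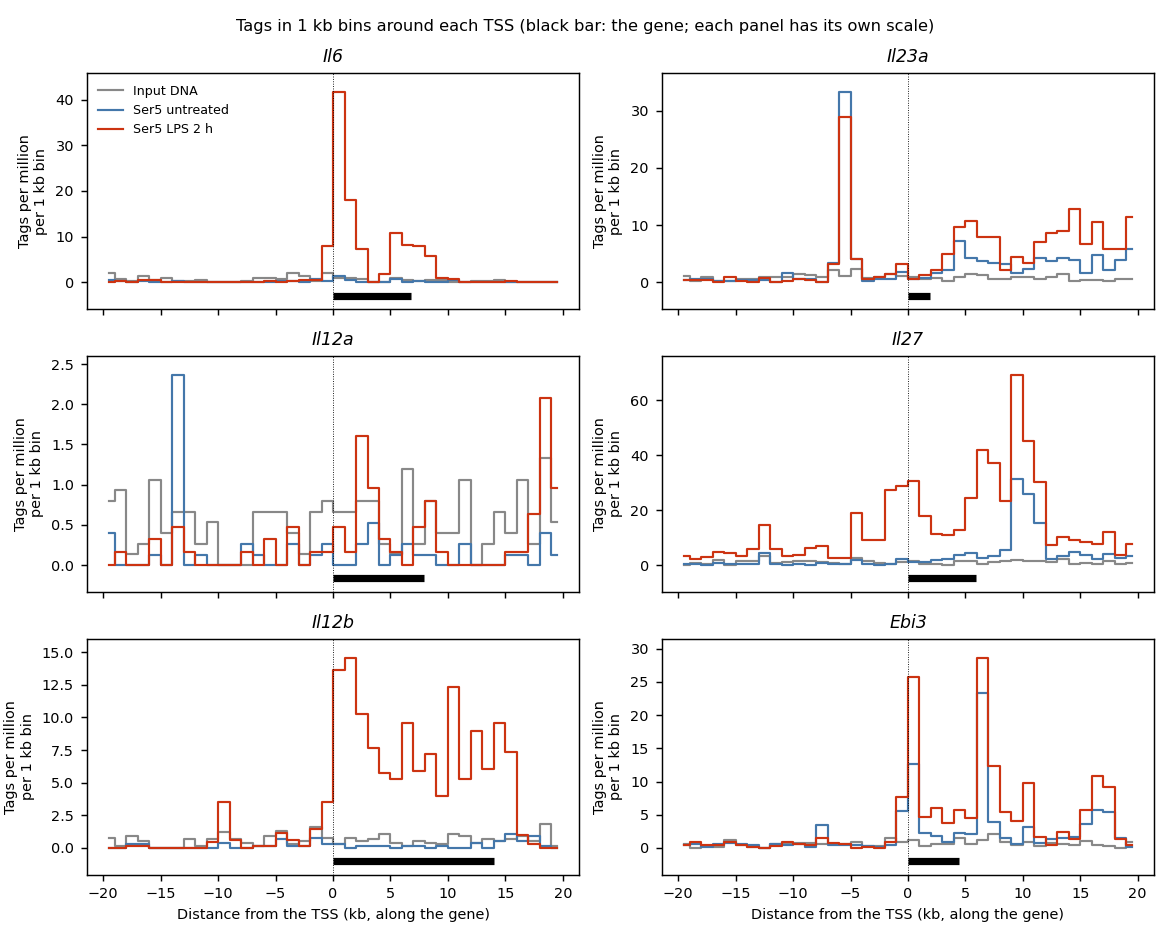
TPM in 1 kb bins from 20 kb before to 20 kb after the TSS of each gene, for the UT, LPS and input libraries; the black bar is the annotated gene and each panel has its own vertical scale. After LPS the signal rises at the TSS of Il6 and Il12b and ends shortly past the gene, the signal at Il27 extends through the whole upstream region, and the large bins beside Il23a (-6 to -5 kb) and Ebi3 (6 to 7 kb) lie at the starts of the neighbouring genes Pan2, and Ccdc94 and Gm16712.

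The genes of the 2 subunits that pair with p40 had few Ser5 tags in either library. Il12a, at chr3:68494566-68502469 on the plus strand, encodes p35, and held 10 tags over its gene body in UT, 26 after LPS and 36 in the input. LPS over UT was 3.17 (1.48 to 7.36), which passed the rule of size, but the LPS level, 0.526 TPM per kb (0.344 to 0.771), was 0.871 times the input (0.505 to 1.48), or 1.79 times it (1.04 to 3.05) when scaled to tags outside peaks. No peak was called in the gene, at its TSS, in its 20 kb upstream or in its 3′ flank in either library. Its TSS window held 2 tags in UT, 4 after LPS and 11 in the input, too few for a call. Upstream it held 31 tags in UT and 15 after LPS (0.590 times, 0.296 to 1.13), and 18 of the 31 lay in 1 bin, 14 to 13 kb before the TSS.

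Il23a, at chr10:127733196-127735140 on the minus strand, encodes p19, and its gene body held 10 tags in UT, 12 after LPS and 12 in the input. The ratio of LPS to UT was 1.46 (0.579 to 3.78) and no peak was called in the gene or at its TSS in either library. Its TSS window held 18, 24 and 16 tags, 1.62 times higher after LPS (0.846 to 3.18). At this depth a change of about 3 times in this short gene lies inside the interval, so that a difference was not detectable. Scaled to tags outside peaks, its gene body after LPS was 2.48 times the input (1.02 to 6.04) and its TSS in UT 2.13 times (1.02 to 4.46). Peaks around it lay outside the gene. The promoter of Pan2, a deadenylase subunit transcribed away from Il23a and starting at -5251 bp from the Il23a TSS, accounted for the only upstream peak in each library, and Stat2, a transducer of interferon signals that ends 5235 bp past the Il23a TSS on the other strand, went from 766 tags in UT to 1376 after LPS (2.19 times, 2.00 to 2.39). Between the ends of Il23a and Stat2, in no annotated gene, peaks were called at 4026 to 4613 and 4732 to 5200 bp past the Il23a TSS in UT and at 3105 to 3435 and 4052 to 4706 bp after LPS.

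Il27, at chr7:133732524-133738455 on the minus strand, encodes p28. Over its gene body it held 109 tags in UT, 666 after LPS and 37 in the input, which gave the highest LPS level per kb of the 6 genes, 18.0 TPM per kb (16.6 to 19.4). LPS over UT was 7.45 (6.07 to 9.20). The TSS window held 25 tags in UT, 372 after LPS and 20 in the input, so that the TSS was near the input level before LPS (1.24 times, 0.659 to 2.35, or 2.36 times, 1.26 to 4.49, scaled to tags outside peaks) and 22.4 times it (14.3 to 37.1) after. The ratio of LPS to UT at the TSS was 18.1 (12.1 to 28.4).

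The tags in UT lay toward the 3′ end of Il27. UT density in the TSS window was 0.616 times (0.381 to 0.963) that in the rest of the gene, and after LPS it was 1.93 times (1.68 to 2.22), close to the 1.90 times (1.00 to 3.53) of the input. The 3 UT peaks in the gene lay between 3818 and 5697 bp past the TSS, the highest with a score of 66.8, and after LPS 5 peaks covered 95.4% of it. The end of Il27 overlaps that of Apobr, an apolipoprotein B receptor gene read from the other strand, which held 327 tags in UT and 1085 after LPS (4.04 times, 3.57 to 4.59). Tags carry no strand of transcription, so the share of either gene in the overlapping tail cannot be told apart. The start of Apobr overlaps that of Cln3, a lysosomal membrane protein gene on the strand of Il27. Cln3 went from 811 to 1451 tags (2.18 times, 2.00 to 2.38), tags partly shared with Apobr. The kb that holds this overlap, 9 to 10 kb past the Il27 TSS, had 239 tags in UT and 432 after LPS.

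Ebi3, at chr17:56092046-56096444 on the plus strand, encodes the partner of p28 and p35, and was the member with the most Ser5 before LPS. Its gene body held 137 tags in UT, 262 after LPS and 24 in the input, 4.09 (3.43 to 4.83), 9.53 (8.41 to 10.8) and 0.724 TPM per kb. LPS over UT was 2.33 (1.89 to 2.89). The TSS window held 138 tags in UT, 209 after LPS and 16 in the input, 1.85 times higher (1.48 to 2.31), which is under the rule of size.

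The TSS of Ebi3 was the only one of the 6 with a Ser5 peak in UT, with a score of 826, and the peak after LPS scored 1295. Past its first kb the gene held 41 tags in UT and 101 after LPS, 3.002 times higher (2.07 to 4.43), and peaks covered 15.2% of the gene in UT and 58.5% after LPS. The density at the TSS was 5.72 times (4.01 to 8.31) that in the rest of the gene in UT and 3.52 times (2.76 to 4.50) after LPS, and these intervals overlap. The input gave 1.81 times (0.839 to 3.93). A long intergenic non-coding RNA, Gm16712, overlaps the end of Ebi3 on the other strand, and Ccdc94 starts 6564 bp past the Ebi3 TSS. Gm16712 held 189 tags in UT and 251 after LPS (1.62 times, 1.33 to 1.97), tags partly shared with Ebi3.

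**Figure D3:**
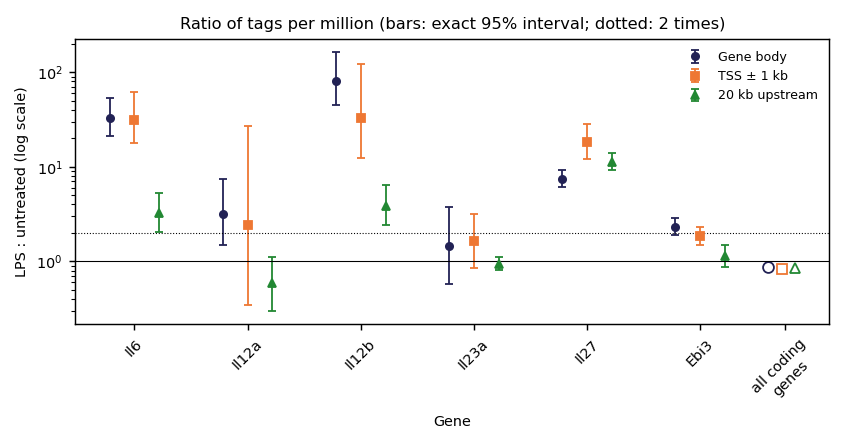
Ratio of TPM, LPS to UT (log scale), for each gene in the gene body, the TSS window and the 20 kb upstream, with exact 95% intervals; open symbols are the medians over all coding genes tested and the dotted line is 2 times. Il6, Il12b and Il27 are above 2 times in all 3 regions, Ebi3 in the gene body only, and the interval of Il23a includes 1 in every region.

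Set side by side per kb, the gene body levels after LPS ran in the order Il27, Il6, Ebi3, Il12b, Il23a (0.987, 0.510 to 1.72) and Il12a. The intervals of Ebi3 and Il12b overlap, as do those of Il23a and Il12a, and those of the other neighbours in the order do not. In UT the order was Ebi3, Il27 (2.41, 1.98 to 2.91), Il23a (0.675, 0.324 to 1.24), Il6, Il12a (0.166, 0.0797 to 0.305) and Il12b. From Il23a on, each gene's UT interval overlaps that of the next. The genes of the paired subunits of 1 cytokine thus had unequal Ser5 levels per kb after LPS. These libraries do not measure RNA or protein. Il12b exceeded Il12a and Il23a with intervals well apart, and Il27 exceeded Ebi3.

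At the TSS, 3 of the 5 genes with enough tags (Il6, Il12b and Il27) were higher after LPS, where 5.58% of 12535 coding genes were. Peaks at the TSS were present in UT at 1 of the 6 genes (Ebi3) and after LPS at 4 (Il6, Il12b, Il27 and Ebi3), beside 48% of all 22350 coding genes in UT and 45.9% after LPS. Il6, Il12b and Il27 had a TSS peak after LPS and none in UT, as did 1.01% of coding genes. In gene bodies, Il6 and Il12b went from no peak to at least 1, as did 1.48% of coding genes, with 53.3% of coding genes holding a peak in UT and 50.6% after LPS.

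In the 20 kb upstream, Il6, Il12b and Il27 were again higher after LPS, 3 of 6 genes, where 5.36% of 20199 coding genes were higher and 11.2% lower (6.58% and 8.87% with scaling to the tags outside peaks). The median over the 6 genes was 2.19 and that over all coding genes tested 0.859. Upstream peaks were present at 2 of the 6 genes in UT (Il23a and Ebi3) and at 5 after LPS, all but Il12a, beside 55.4% and 52.9% of coding genes. After LPS, the only one of Ebi3 was the edge of its TSS peak, and the only one of Il23a lay at the Pan2 promoter. Il6, Il12b and Il27 had one after LPS and none in UT, as did 1.59% of coding genes, and that of Il6 was the edge of its TSS peak, 229 bp of it upstream. The Il6 call rested on the kb next to the TSS, which held 50 of the 72 LPS tags. Without this kb, Il6 held 25 tags in UT and 22 after LPS, 1.07 times (0.576 to 1.98). Il12b held 24 tags in UT and 76 after LPS (3.86 times, 2.41 to 6.39), of which 22 lay in the bin with the distal peak, and 22 and 54 (2.99 times, 1.79 to 5.16) without the last kb and without the pseudogene Gm12155.

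Il27 stood apart upstream. Its 20 kb upstream held 111 tags in UT, 1036 after LPS and 176 in the input, 11.4 times higher after LPS (9.34 to 14.0) and 7.10 times the input (6.04 to 8.37). All 20 of its 1 kb bins were at least 2 times higher after LPS, where 12.8% of 93306 upstream bins of coding genes were. UT had 0 peaks there, and after LPS 13 peaks covered 51.2% of the 20 kb, with a run of peaks from -4567 bp to the TSS and a separate peak at -13244 to -11576 bp with a score of 339. No annotated gene lies in these 20 kb. The next gene, Nupr1, a stress-response gene on the same strand, ends at -28308 bp and went from 322 to 630 tags (2.38 times, 2.08 to 2.74). Further peaks were called after LPS between the 20 kb and Nupr1, the highest at -27417 to -25771 bp with a score of 1887. UT had a peak at -27414 to -26540 bp with a score of 237. Whether the upstream tags belong to transcription from Nupr1, from Il27 or from within the interval was not tested. At Ebi3 the upstream level did not pass the rule (121 and 113 tags, 1.14 times, 0.873 to 1.48), and 2 weak upstream peaks of UT at the Zfp119b promoter were not called after LPS.

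After the gene ends, the 10 kb flank was higher after LPS at 4 of 6 genes (Il6, Il12a, Il12b and Il27), where 7.58% of 17862 coding genes were. At Il12b it held 27 tags in UT and 121 after LPS (5.46 times, 3.58 to 8.63). At Il12a it held 5 and 12, under the input count of 40. The flank of Il27 (746 and 1764 tags) lies over Apobr and Cln3, and those of Il23a and Ebi3 did not pass. The Il23a flank holds the interval before the end of Stat2 and part of Stat2, and the Ebi3 flank lies over Gm16712 and part of Ccdc94.

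The 6 early LPS-response cytokine and chemokine genes used for comparison had higher median gene body levels than the members in both Ser5 libraries, 21.8 against 0.530 TPM per kb in UT and 464 against 8.93 after LPS. All 6 were higher after LPS in the gene body, beside 5.83% of all coding genes tested. Their ratios were 9.62 (Tnf), 44.5 (Il1b), 70.6 (Cxcl1), 28.1 (Cxcl2), 9.67 (Ccl3) and 21.5 (Ccl4). Tnf, the prototype of the first wave, held 1640 tags in UT and 12945 after LPS, and Ccl3 held 699 and 5547. A Ser5 peak was present in the gene body in UT at 5 of these 6 genes and at 2 of the 6 members, beside 53.3% of all coding genes. Il1b was the exception, with 35 tags in UT, 0.699 TPM per kb, and 1277 after LPS. With tags scaled to the whole library, its UT level was 0.558 times its input (0.358 to 0.858). Scaled to tags outside peaks this ratio is 1.91 times as large, which no longer puts Il1b below its input. Per kb of gene body, the LPS levels of the early genes were 31.1 to 788 TPM and those of the members 0.526 to 18.0, so that these ranges did not overlap. In the TSS window they did, at 15.6 (Il1b) to 517 TPM per kb for the early genes and 0.320 to 29.7 for the members. Il27 (29.7), Il6 (24.8) and Ebi3 (16.7) lay above Il1b there, though the intervals of Ebi3 and Il1b overlap. In the gene body, Il6 and Il12b had ratios in the range of the early genes or above it, at levels that stayed lower.

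**Figure D4:**
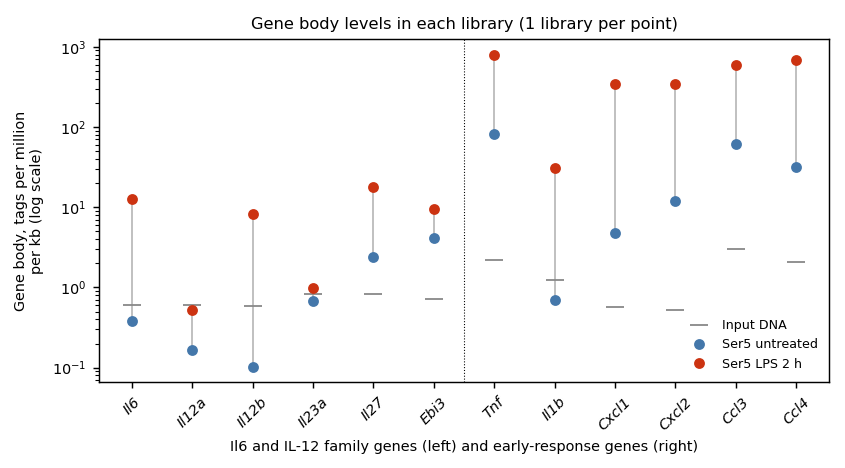
Gene body level in TPM per kb (log scale) for the 6 genes (left) and 6 early-response cytokine and chemokine genes (right), with 1 library per point; a line joins UT to LPS and the dash is the input. Tags are scaled to the whole library. In UT, 5 of the 6 early genes lie above the input (Il1b below), and of the members Il27 and Ebi3 do.

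Among the receptors and signal transducers of these cytokines, 13 genes were tested in the gene body, of which 4 were higher and 2 lower, with a median ratio of 1.13, beside 5.83% higher and 11.3% lower of all coding genes tested. Socs3, the feedback inhibitor of gp130 signalling, went from 244 tags in UT to 2129 after LPS (10.6 times, 9.31 to 12.2). The kinase genes Jak2 (5.16 times) and Tyk2 (2.49 times) were also higher. The 2 lower genes, a share near that over all coding genes, were receptor genes. Il6ra, the interleukin-6 receptor, went from 551 to 159 tags (0.352 times, 0.293 to 0.420), and Il6st, which encodes gp130, went from 300 to 112 (0.455 times, 0.363 to 0.567). Il12rb1, Il12rb2, Il23r and Il27ra, the receptors of the interleukin-12 family, passed in neither direction, with ratios from 0.696 to 1.32, and Il23r and Il27ra had no peak in either library. Stat3 had a ratio of 1.29 (1.16 to 1.44). In the TSS window Il6ra was also lower after LPS (0.415 times, 0.305 to 0.560). That of Il6st held 9 tags in UT, 12 after LPS and 9 in the input (LPS over UT 1.62, 0.628 to 4.37), with no peak in either library.

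Of 6 other cytokines that signal through gp130, 2 were higher in the gene body, beside 5.83% of all coding genes tested. These were Lif (57 tags in UT, 134 after LPS, 2.87 times, 2.09 to 3.98) and Ctf1 (15 and 33, 2.68 times, 1.42 to 5.31). Lif had 3 gene body peaks after LPS and 0 in UT, but its TSS window held 2 tags in each Ser5 library and 15 in the input, with no peak. Ctf1 had no peak in its gene body or at its TSS in either library, and its LPS level was 1.28 times the input (0.762 to 2.17). Osm, which encodes oncostatin M, had 198 tags in UT and 154 after LPS (0.948 times, 0.763 to 1.18). The median of the 6 was 1.13.

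Among 12 regulators of these cytokines, 7 were higher and 1 lower in the gene body, with a median ratio of 2.65. All 12 had gene body peaks in both libraries, beside 53.3% of coding genes in UT and 50.6% after LPS. The NF-kB subunit genes Nfkb1 (5.61 times) and Rel (4.31), the nuclear I-kB protein gene Nfkbiz (5.55), which acts at the Il6 and Il12b promoters, and Irf1 (5.05) had the largest ratios. Atf3 (3.32), a repressor of Il6 and Il12b, and Zc3h12a (2.95) and Arid5a (2.35), which destabilize and stabilize Il6 mRNA, were also higher. Irf8, which activates Il12b in macrophages, was lower, with 1428 tags in UT and 481 after LPS (0.411 times, 0.369 to 0.456). Rela, Irf5, Cebpb and Batf passed in neither direction, with ratios from 1.26 to 1.97. At the TSS, 4 of the 12 regulators were higher and 0 lower, with a median ratio of 1.67. Nfkb1 (1.84), Rel (1.94), Arid5a (1.44) and Irf8 (0.663) passed in neither direction there. Together, 13 of the 31 pathway genes were higher and 3 lower in the gene body, beside the same 5.83% and 11.3% of all coding genes, and the lower share was near that of all genes. At the TSS, 9 of the 28 pathway genes with enough tags were higher and 1 lower, beside 5.58% and 14.1% of coding genes tested.

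The genes whose gene body levels over the 3 libraries were most like each member's were found by the distance of log2 levels per kb among 17385 other genes, a likeness over 3 libraries only. Nearest to Il6 was Nos2, the inducible nitric oxide synthase (133 tags in UT, 3099 after LPS and 174 in the input), and then Art3, which overlaps the chemokine genes Cxcl10 and Cxcl11. Nearest to Il12b were Mmp13, a collagenase (12, 480 and 45 tags), and Gbp2, a guanylate-binding protein with close paralogs. Nearest to Il27 were Fpr2, a formyl peptide receptor that overlaps Fpr3 in the annotation (104, 583 and 34 tags), and Icosl, the ligand of the costimulatory receptor ICOS. For Il12a they were Slc6a4 and Met, and for Ebi3 Gm1332 and Cggbp1.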

How the data were processed

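Ser5 Pol_II ChIP-Seq and input libraries of mouse macrophages, 1 each, were grouped by their sample labels. Per the labels and the methods, the authors aligned reads to mm9 with Bowtie, keeping unique matches, and ran MACS on both Ser5 libraries with the input as control. Tool versions are not given in the sources used here. The methods give the trimmed lengths of the Ser5 libraries the other way round from the deposited tags. The deposited files hold aligned tags, 1 per line with no normalization, and peaks whose score is -10 times log10 of the p-value (p at most 1e-05).

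Tag 5′ ends were counted on chromosomes 1 to 19 and X over the gene body, 1 kb on each side of the TSS, 20 kb upstream and 10 kb downstream of each GENCODE M1 coding gene (Python 3.11.15, numpy 2.4.6, scipy 1.17.1), and scaled to 1000000 tags (TPM). A peak counted for a region it overlapped by at least 1 bp. Depth was 6249819 to 7616771 tags per library. The rule of size (at least 2 times, at least 10 tags, a count of 0 set to 0.5 for the ratio) was applied to all coding genes, and the counting, the intervals and the rule were tested on simulated data. Promoters were read from the NCBIM37 (mm9) genome. Alternatives were to keep 1 tag for each position on a strand, to move tags by 75 bp toward the fragment centre, scaling to tags outside the peaks of both lists, no minimum, a threshold of 3 times, the longest coding transcript, 500 bp at the TSS, the upstream region without its last kb and without other genes, tags whose first 30 bases occur once in the genome, peak scores of at least 100, and peak midpoints.

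The text names the 6 members, the genes of fixed lists (receptors and transducers, other gp130 cytokines, regulators, early-response genes, cell type markers), genes beside a member, and the 2 nearest genes by pattern. The members and lists were chosen with earlier results of these data known. Of 32 pathway genes, 31 were used, and Cebpd was not analysed here. Some genes that these rules pick are not reported here.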

Additional observations from a re-analysis of the deposited data

How the results depend on the processing

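The counts of members at least 2 times higher after LPS (5 in the gene body, 3 at the TSS and 3 upstream) stayed within 1.5 times of these values under all 22 alternatives run on them. At 3 times the gene body count was 4, without Ebi3. With no minimum of tags the TSS count was 4, with Il12a at 2 and 4 tags. Without the kb next to the TSS and without other genes the upstream count was 2, without Il6. Of 94 alternative values of the ratio of LPS to UT, 93 lay inside the interval of the value given above, and the exception was this upstream value of Il6 (1.07). With peak scores of at least 100, 1 gene (Ebi3) rather than 2 had a gene body peak in UT, and the other 11 alternative peak counts were within 1.5 times. Scaling to tags outside peaks moved the median of all coding genes by 0.11 on the log2 scale. Of the 36 ratios to the input, this scaling moved 24 out of their intervals, and the other alternatives (108 values in all) moved none. This scaling turned a further 2, whose interval had excluded 1, from below the input to above it. Both were upstream: Il27 in UT (1.19) and Il6 after LPS (1.45). Ratios whose interval had included 1 also crossed it at Il6 (UT, gene body and TSS), Il23a (UT, gene body) and Il12a (LPS, gene body). No paired analysis was possible because each condition had 1 library, and for the same reason no library could be left out. Depth limits Il12a and Il23a, whose gene bodies held 10 tags each in UT.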
